A study of Mus musculus with 3 samples.

Results

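A set of 10 genes of the response to low oxygen and of glycolysis were followed through the immune cells of mouse melanoma grafts. They are Hif1a, Egln3, Slc2a1, Hk2, Pfkfb3, Pgk1, Ldha, Vegfa, Bnip3 and Ero1l, chosen by symbol, 10 of the 55401 genes listed, and every one was found once. The cells came from tumours of YUMM1.7, a transplantable mouse melanoma line, grown under the skin of mice aged 4, 12 or 20 months from 500000 injected cells and collected 18 days later. Live cells carrying CD45, the common leukocyte surface protein, were sorted and profiled by PIP-seq, a droplet method that reads the 3′ end of transcripts. Each age gave 1 library, and the labels name 7 mice per age without saying whether their cells were pooled. The labels give no strain, sex or treatment, and no untreated or tumour-free group is part of the design. Differences between ages therefore have no replicate check.

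When oxygen is plentiful, prolyl hydroxylases mark the HIF-1α protein for destruction through VHL. When oxygen is short, HIF-1α persists, pairs with ARNT and raises the transcription of genes for glucose uptake, glycolysis, vessel growth and mitochondrial turnover. HIF-1α is controlled largely at the protein level, so the Hif1a transcript does not read out the activity of the factor. In myeloid cells inflammatory signals also raise Hif1a and several of its targets, and activated lymphocytes raise glycolytic genes as they divide.

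Sequence motifs bearing on these genes lie in the promoters annotated by RefSeq on GRCm38.p6. The core bound by HIF is ACGTG or GCGTG, searched on both strands (also as CACGT and CACGC), so that the palindrome CACGTG counts on both strands. In the 150 bases before the annotated start, 8 of the 10 genes held at least 1 core at some start, against 28.6% of 32851 promoters of all genes, counted per start. Ldha and Pgk1 are shown because they were higher together in dividing cells, and Slc2a1 and Bnip3 because they were higher in macrophage-like than in T-like cells. Hk2, Vegfa and Pfkfb3 differed by more between the latter classes and are not shown, and Hk2 held 1 core in this window. A link between cores and class differences was not tested. Cores are in capitals, and each line is read 5′ to 3′ on the strand of the gene.
Ldha, chr7:46845654-46845803 (GRCm38.p6, plus strand): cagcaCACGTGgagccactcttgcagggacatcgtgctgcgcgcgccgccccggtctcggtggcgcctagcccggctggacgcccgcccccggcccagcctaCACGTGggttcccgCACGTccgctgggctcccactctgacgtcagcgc
Pgk1, chrX:106186950-106187099 (GRCm38.p6, plus strand): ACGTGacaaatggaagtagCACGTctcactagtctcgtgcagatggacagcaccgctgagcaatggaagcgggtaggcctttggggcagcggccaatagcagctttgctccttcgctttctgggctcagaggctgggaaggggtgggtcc
Slc2a1, chr4:119108595-119108744 (GRCm38.p6, plus strand): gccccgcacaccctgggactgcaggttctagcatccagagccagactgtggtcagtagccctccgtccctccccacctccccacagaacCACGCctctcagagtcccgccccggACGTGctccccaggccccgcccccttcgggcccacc
Bnip3, chr7:138909507-138909656 (GRCm38.p6, minus strand): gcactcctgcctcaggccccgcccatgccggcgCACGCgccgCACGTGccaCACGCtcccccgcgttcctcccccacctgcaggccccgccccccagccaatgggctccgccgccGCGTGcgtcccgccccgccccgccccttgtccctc
Ldha and Bnip3 each held 5 cores in this window, and Slc2a1 and Pgk1 each held 2. Vegfa and Egln3 held none in 150 bases, which says only that these letters are absent from this window.

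On GRCm38 the protein-coding gene Vegfa lies at chr17:46016993-46032369 on the minus strand and Hif1a at chr12:73901375-73947530 on the plus strand. Exons of Hif1a overlap Gm15283 on the opposite strand and Gm49321 on the same strand. Exons of Slc2a1 (chr4:119108711-119137983) and Bnip3 (chr7:138890836-138909519) overlap the antisense genes Gm12868 and Gm45507. Whether strand was used in counting is not given in the sources used here, so reads of such overlaps cannot be told apart.

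The libraries totalled 110371225, 127850782 and 119873564 counts at 4, 12 and 20 months, with medians of 6789, 7411 and 6936 counts per cell. After filtering, 13528, 13774 and 13803 cells remained, and pairs of libraries shared 2 to 4 cell barcodes. Cells were clustered without the 10 genes and named from marker genes, so each class is called "-like". Of the classes not dividing, each was highest for its own marker list in every library, macrophage-like cells with 9247 to 11705 CPM of 12 macrophage genes against at most 1628 CPM in any other class. Macrophage-like cells numbered 2919, 2982 and 3698 in these libraries, monocyte-like cells 2239, 1126 and 1329, and dendritic cell-like cells 741, 689 and 760. T-like cells numbered 4592, 5743 and 5324, and NK-like cells 2283, 2018 and 1548. Dividing T-like cells (436, 926 and 887) and dividing NK-like cells (103, 139 and 117) were kept apart. Levels are CPM, a gene's counts scaled to a fixed total of all counts of a class in a library, and every interval is a 95% interval that covers counting error only. In the sentences below, 3 values in a row are the libraries at 4, 12 and 20 months.

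**Figure D1:**
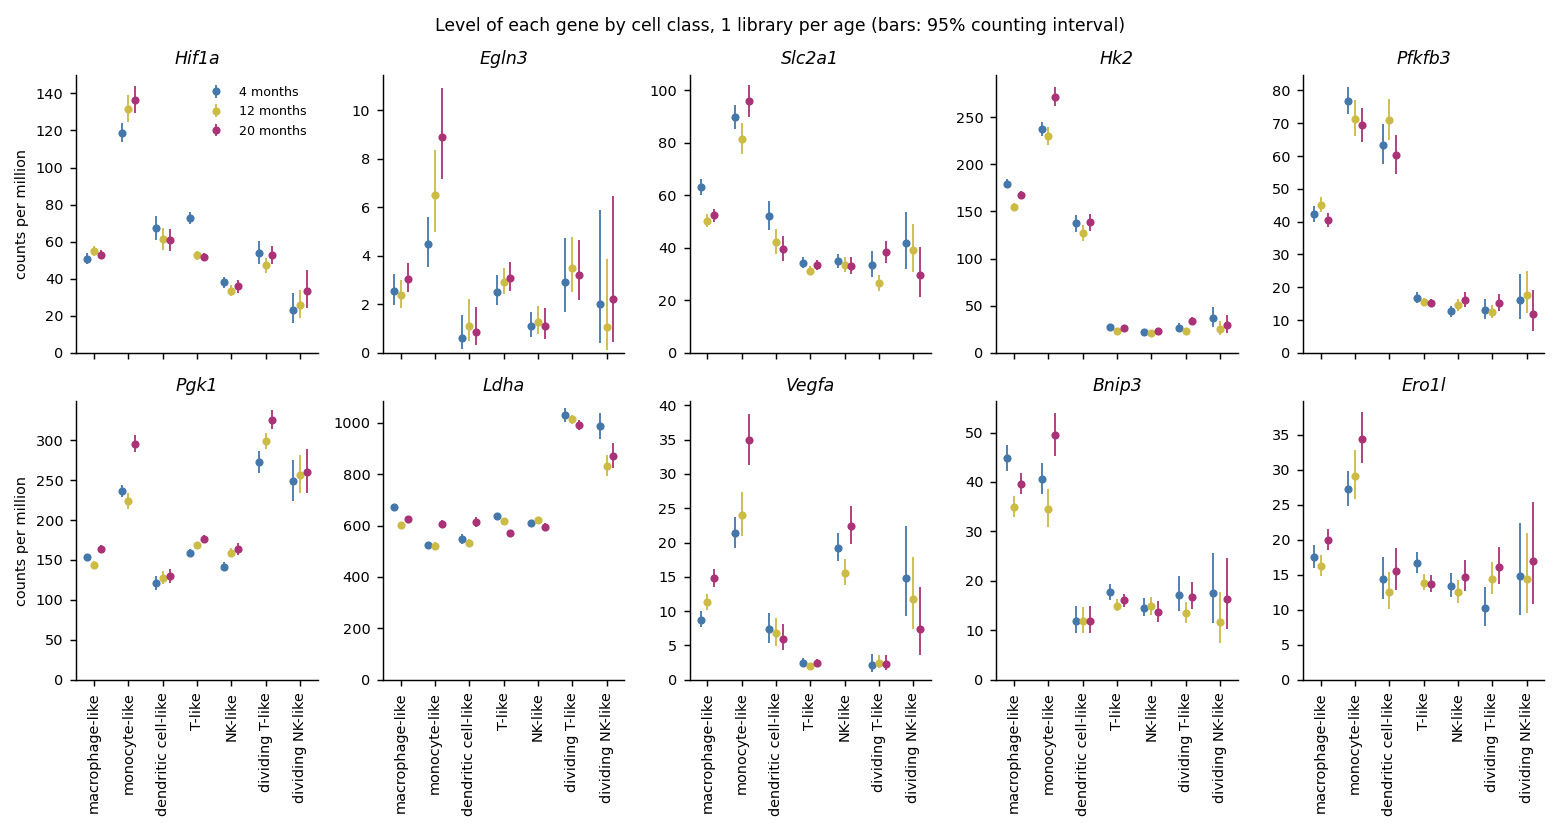
Level of each gene (vertical axis, CPM, starting at 0) in 7 cell classes (horizontal axis) in the libraries at 4, 12 and 20 months, with bars for the 95% counting interval. Monocyte-like cells are highest in every library for Hif1a, Slc2a1, Hk2, Vegfa and Ero1l, and dividing T-like cells are highest for Ldha and Pgk1.

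Classes were compared by summing counts per class and library and fitting edgeR's quasi-likelihood model with class and age as terms over 24 sums. These include nonclassical monocyte-like cells, with 118, 69 and 52 cells. P-values were adjusted over 19251 genes by the Benjamini-Hochberg method and called under 0.05. The libraries differ in age, so the spread behind these tests is that between ages once the age term is removed, and all classes of an age share a library. Where the borders between clusters fell depended on the settings and the random start of the clustering. Many of the calls lost or gained with them, though not all, are therefore given beside the results.

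Monocyte-like cells held more of these transcripts than macrophage-like cells. Between these classes 8 of the 10 genes were higher in monocyte-like cells and none was lower, where 37.9% of all genes were called in either direction and 18.5% were called higher. Hif1a, the oxygen-regulated subunit of the HIF-1 factor, stood at 118.7, 131.7 and 136.4 CPM in monocyte-like cells and at 50.9, 54.7 and 52.9 CPM in macrophage-like cells. The values did not overlap, and the log2 fold change was 1.37 ± 0.09 (SE, adjusted p = 9.03e-11). Egln3, a prolyl hydroxylase that acts on HIF-1α, was at 4.48, 6.51 and 8.91 CPM against 2.56, 2.38 and 3.05 CPM, with a log2 fold change of 1.37 ± 0.26 (edgeR adjusted p = 0.000191).

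Glucose handling genes differed in the same direction. Slc2a1, the glucose transporter GLUT1, was at 89.6, 81.5 and 95.7 CPM in monocyte-like cells and 63.1, 50.4 and 52.3 CPM in macrophage-like cells, a log2 fold change of 0.78 ± 0.09 (edgeR adjusted p = 2.12e-07). Hk2, a hexokinase that traps glucose in the cell, was at 237.0, 229.6 and 271.7 CPM against 179.6, 154.8 and 167.4 CPM. Its log2 fold change was 0.64 ± 0.09 (edgeR adjusted p = 2.26e-06). Pfkfb3, which makes the activator of phosphofructokinase, differed by 0.86 ± 0.08 (edgeR adjusted p = 2.30e-08), and Pgk1, a glycolytic kinase, by 0.79 ± 0.06 (edgeR adjusted p = 9.41e-10).

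Ldha, which turns pyruvate into lactate, was not called, at 524.4, 520.5 and 606.9 CPM in monocyte-like cells and 671.1, 600.4 and 626.7 CPM in macrophage-like cells. Its log2 fold change was -0.11 ± 0.06 (edgeR adjusted p = 0.176), and the 2 classes overlapped. With total counts as the only scaling, which moved the median of all genes from -0.00074 to -0.09, Ldha was called lower at -0.20 (edgeR adjusted p = 0.0150).

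Among the genes for vessel growth and cell stress, Vegfa, the vascular endothelial growth factor A, was higher in monocyte-like cells by 1.28 ± 0.16 (edgeR adjusted p = 1.27e-06). Ero1l, an oxidase of the endoplasmic reticulum, was higher by 0.84 ± 0.10 (edgeR adjusted p = 4.89e-07). Bnip3, a mitophagy receptor, was at 40.6, 34.5 and 49.5 CPM against 44.8, 35.0 and 39.6 CPM, and the 2 classes overlapped. Its log2 fold change of 0.15 ± 0.09 was not called (edgeR adjusted p = 0.206). Bnip3 was called higher under 7 other ways of clustering or naming the cells, with log2 fold changes of 0.21 to 0.52.

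**Figure D2:**
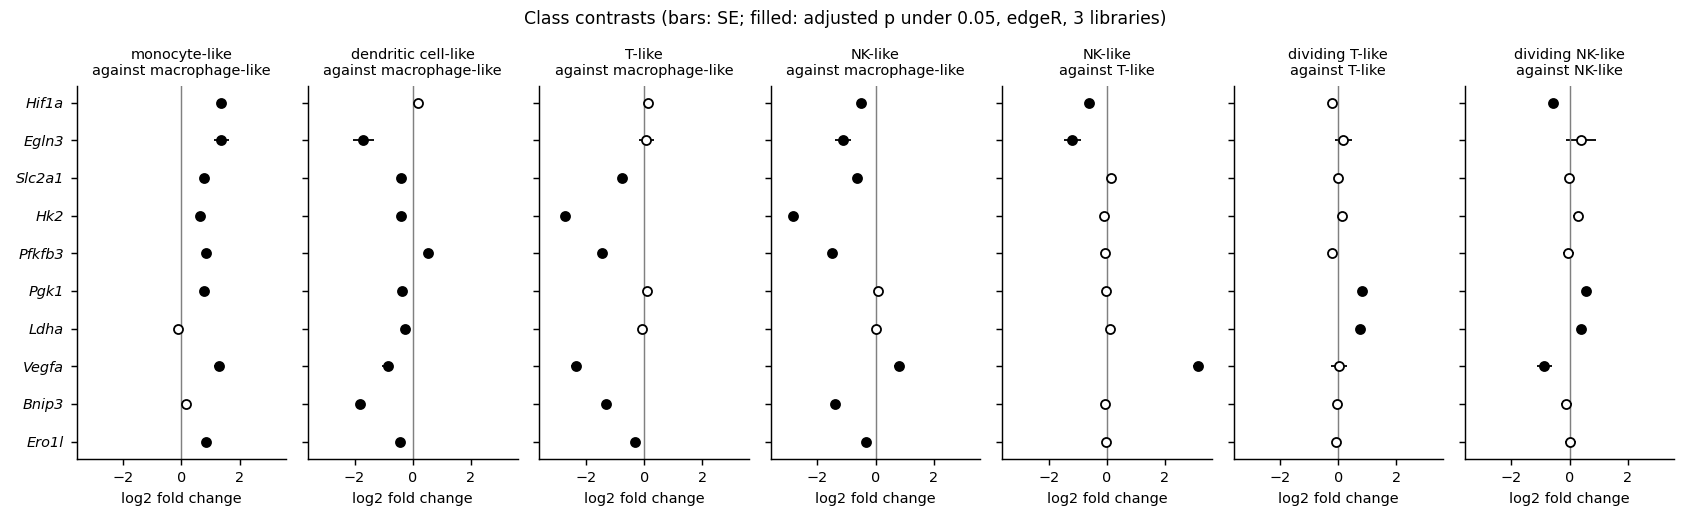
Log2 fold change of each gene (horizontal axis) in 7 class contrasts from edgeR over 3 libraries, with bars for the standard error and filled points for an adjusted p under 0.05. Monocyte-like against macrophage-like cells has 8 filled points, all above 0, and both contrasts of dividing cells have filled points above 0 for Pgk1 and Ldha only.

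Lists of related genes were counted in the same fit. Of 19 tested glycolysis genes, 11 were higher and 2 lower in monocyte-like cells, with a median log2 fold change of 0.36 against -0.00074 over all genes. The lactate exporter gene Slc16a3 was higher by 1.29 ± 0.09 (edgeR adjusted p = 1.45e-10), and the aldolase gene Aldoc was lower, at -1.43 ± 0.21 (edgeR adjusted p = 7.06e-06). Of 9 tested regulators of HIF, 3 were higher and 0 lower, among them Arnt, the partner of HIF-1α, at 0.78 ± 0.08 (edgeR adjusted p = 9.88e-08). That count is no larger a share than the 37.9% of all genes called. Of 22 other tested HIF target genes, 12 were higher and 4 lower. Mxi1 was at 1.62 ± 0.13 and Arg1, arginase 1, at 1.20 ± 0.13, while Car9, a carbonic anhydrase often used as a hypoxia marker, was at -1.80 ± 0.30 (edgeR adjusted p = 4.38e-05). Immediate-early genes such as those of the Fos and Jun families, which respond to tissue digestion, were also higher in monocyte-like cells, 8 of 12 with 0 lower. Their part in the result was not tested. Leaving out the few monocyte-like cells with neutrophil markers, a choice made after seeing the data, left 8 genes called.

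Within the macrophage-like class the genes were spread unevenly over clusters. This is a description with no test, since a cluster is made from its own cells. The cluster led by Il1b, Cxcl2 and Cd14 lay above all other macrophage-like cells in every library for 7 of the 10 genes, where 15.2% of all genes did so. The cluster led by Pf4, Cd81 and Ms4a7 lay below the rest for 8 of the 10, where 22.5% of all genes did so. Hif1a was at 63.8, 66.7 and 80.8 CPM in the Il1b cluster and at 28.8, 30.4 and 34.8 CPM in the Pf4 cluster. Slc2a1 was at 77.8, 64.7 and 78.3 CPM in the Il1b cluster and at 29.5, 24.3 and 28.6 CPM in the Pf4 cluster.

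A small macrophage-like cluster led by Mmp12, Lpl and Cd36 held 36, 19 and 13 cells. Its Bnip3 was at 99.7 CPM (70.2 to 137.4), 96.3 CPM (62.3 to 142.2) and 264.3 CPM (182.0 to 371.2). These intervals lay above the Bnip3 of the whole macrophage-like class in each library. Among monocyte-like cells, the cluster led by F13a1, S100a8 and Hp lay above the other cluster for 3 of the 10 genes, Hif1a, Vegfa and Pfkfb3, where 23.6% of all genes did so. That count is near the share of all genes and is no result about the 10 genes as a set. Vegfa in the F13a1 cluster was at 27.7, 32.9 and 46.6 CPM, against 14.6, 13.9 and 23.7 CPM in the cluster led by Tgm2, AA467197 and Slfn4. Bnip3 and Ldha ran the other way, with Bnip3 at 23.9, 29.8 and 32.7 CPM against 58.3, 39.9 and 65.4 CPM. The share of all genes that lay below in the F13a1 cluster is not given here.

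Dendritic cell-like cells were below macrophage-like cells for 8 of the 10 genes and above for 1, where 35.4% of all genes were called in either direction. Bnip3 was lower, with a log2 fold change of -1.81 ± 0.11 (edgeR adjusted p = 9.20e-12), and stood at 11.9, 12.0 and 12.0 CPM. Pfkfb3 was higher by 0.52 ± 0.09 (edgeR adjusted p = 4.60e-05). The Ldha call was lost without the 4-month library (edgeR adjusted p = 0.0590) and with total counts as the only scaling (0.0502), and the Ero1l call without the 12-month library (0.0866). Of the 9 calls, 6 were lost when each library was clustered separately, and 5 at resolution 2.0 and with stricter naming of clusters. Vegfa changed sign under the last pair of settings. Hif1a, at 0.17 ± 0.10 and not called (edgeR adjusted p = 0.219), was called higher in dendritic cell-like cells under all 3, at 0.33 to 0.54.

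The higher Pfkfb3 came with a single dendritic cell-like cluster, led by Fscn1, Il12b and Ccl22, genes of mature dendritic cells. It held 154.6, 160.5 and 202.7 CPM of Pfkfb3, where the other dendritic cell-like clusters together held 40.1 to 46.3 CPM. The same cluster held 15.3 to 24.2 CPM of Hk2, against 155.7 to 158.6 CPM in the others. Of the 10 genes, 5 lay below the rest there, which is near the 45.5% of all genes that did so. Pfkfb3 was the 1 above, and the share of all genes above the rest is not given here.

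The largest log2 fold change of the 10 genes between T-like and macrophage-like cells was that of Hk2, the first enzyme of glycolysis. Hk2 was at 27.5, 23.2 and 26.5 CPM in T-like cells, a log2 fold change of -2.72 ± 0.09 (edgeR adjusted p = 1.10e-16). Vegfa, Pfkfb3, Bnip3, Slc2a1 and Ero1l were also lower and none of the 10 was higher, while 54.0% of all genes were called. The wider lists were mixed in this contrast. Of 19 tested glycolysis genes, 8 were higher and 8 lower in T-like cells, with a median log2 fold change of 0.02. Of 22 other tested HIF target genes, 8 were higher and 11 lower. Pgk1, at a log2 fold change of 0.11 ± 0.06 (edgeR adjusted p = 0.155), was called higher in T-like cells under 10 alternatives, at 0.16 to 0.53, among them DESeq2 and all 3 other random starts of the clustering. Hif1a, at 0.13 and not called (edgeR adjusted p = 0.266), was called higher in T-like cells under 8 alternatives at 0.21 to 0.79, and Egln3 under 3 at 0.56 to 0.90. Stricter naming, which gave the 0.79, left the T-like cluster led by Dapl1, Gzmm and Nsg2 unnamed. That cluster held 4926 cells and was low in Hif1a, as described below. The Ero1l call was lost without the 12-month library (edgeR adjusted p = 0.0875) or the 20-month library (0.322), by DESeq2 (0.0615) and under several ways of clustering. NK-like cells were below macrophage-like cells for 7 of the genes, with Hk2 at -2.84 ± 0.10 (edgeR adjusted p = 1.70e-16), and above them for Vegfa, at 0.79 ± 0.16 (edgeR adjusted p = 0.000260), where 51.6% of all genes were called. In NK-like cells 5 of the 19 glycolysis genes were higher and 8 lower, and 9 of the 22 HIF target genes were higher and 11 lower. There the Ero1l call was lost without the 12-month library (edgeR adjusted p = 0.0883) or the 20-month library (0.0562). It was also lost at resolution 2.0 (-0.04), with libraries clustered separately (-0.15), with doublets kept (-0.22) and under stricter naming (-0.10). Pgk1, at 0.08 and not called, was called higher in NK-like cells at resolutions 0.5 and 2.0 (0.16 and 0.32) and under stricter naming (0.28). The Hif1a call was lost at resolution 2.0 (-0.15) and under stricter naming (-0.13), the Slc2a1 call under stricter naming (-0.18), and the Egln3 call under both and with libraries clustered separately (-0.74 to -0.43).

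Vegfa separated the lymphocytes. NK-like cells held 19.2, 15.6 and 22.5 CPM and T-like cells 2.49, 2.01 and 2.48 CPM, with a log2 fold change of 3.13 ± 0.19 (edgeR adjusted p = 2.23e-11). In that contrast Vegfa was the 1 gene called higher, Hif1a at -0.62 ± 0.10 (edgeR adjusted p = 3.60e-05) and Egln3 at -1.19 ± 0.29 (edgeR adjusted p = 0.00357) were called lower, and 23.9% of all genes were called in either direction. These 3 calls held in each fit that left out 1 library. Bnip3 at resolution 0.5 (-0.38) and under stricter naming (-0.31), Pgk1 at both other resolutions (-0.22) and Hk2 under stricter naming (-0.29) were called lower in addition. Once each cell was thinned to 3000 counts, 5.26%, 4.96% and 5.10% of NK-like cells had a Vegfa count, against 0.828%, 0.731% and 0.826% of T-like cells. Without thinning, the shares were 12.2%, 10.6% and 12.98% against 1.46%, 1.39% and 1.62%, at median depths of 6866 to 7645 and 5138 to 6004 counts. The intervals of the 2 classes did not overlap at any age, before or after thinning.

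Among T-like clusters, 1 stood out, led by Tnfrsf4, Areg and Penk and carrying Foxp3, the regulator of regulatory T cells, among its leading genes. It lay above the other T-like cells for 7 of the 10 genes, where 35.3% of all genes did so. Hif1a there was at 198.0, 148.5 and 144.4 CPM, against 43.1 to 53.6 CPM in the rest. Bnip3 was at 58.8, 46.0 and 60.7 CPM, against 11.4 to 12.6 CPM, and Egln3 at 7.80, 8.41 and 10.9 CPM, against 1.71 to 2.49 CPM. Ldha, Pgk1, Slc2a1 and Ero1l were the others.

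The dividing T-like cluster led by Areg, Tnfrsf4 and Penk likewise lay above the other dividing T-like cells for 7 of the 10 genes, where 17.3% of all genes did so. Its Hif1a was at 115.1, 105.7 and 107.3 CPM, against 39.0 to 46.4 CPM. At the other end, the T-like cluster led by Dapl1, Gzmm and Nsg2 lay below the rest for 8 of the 10 genes, where 31.8% of all genes did so, with Hif1a at 36.4, 25.9 and 29.9 CPM. The T-like cluster led by Trgc1, Cd163l1 and Il17a, genes of interleukin-17-producing gamma-delta T cells, lay above the rest for 5 genes, where 23.9% of all genes did so. Its Ero1l was at 73.9, 73.8 and 89.5 CPM, against 12.6 to 15.7 CPM in the other T-like cells.

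In dividing T-like cells, 2 of the 10 genes rose and 0 fell. Ldha was at 1028, 1013 and 990.2 CPM in dividing T-like cells and 635.6, 616.4 and 569.8 CPM in T-like cells, a log2 fold change of 0.73 ± 0.06 (edgeR adjusted p = 4.47e-09). Pgk1 was at 272.3, 298.3 and 325.2 CPM against 158.8, 169.0 and 176.3 CPM, a log2 fold change of 0.83 ± 0.06 (edgeR adjusted p = 6.17e-10). Neither gene overlapped between the classes, and 30.8% of all genes were called. At resolution 0.5 Hif1a (-0.76), Bnip3 (-1.09), Egln3 (-0.72) and Ero1l (-0.36) were also called, all lower, and under stricter naming Hif1a (-0.51), Pfkfb3 (-0.36) and Bnip3 (-0.30). Stricter naming left the Dapl1 cluster, low in most of the 10 genes, out of the T-like cells. The same 2 genes rose in dividing against other NK-like cells, Pgk1 by 0.57 ± 0.07 (edgeR adjusted p = 2.47e-06) and Ldha by 0.40 ± 0.07 (edgeR adjusted p = 8.76e-05), where 21.7% of all genes were called. At resolution 0.5 the Ldha call was lost, at 0.12 (edgeR adjusted p = 0.187).

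Vegfa and Hif1a were called lower in dividing NK-like cells, at -0.87 ± 0.26 (edgeR adjusted p = 0.0169) and -0.56 ± 0.17 (edgeR adjusted p = 0.0174). Vegfa there rested on 22, 22 and 10 counts. Both calls were lost without the 12-month library (edgeR adjusted p = 0.0647 and 0.106), and the Vegfa call without the 20-month library (0.120). Both were also lost with total counts as the only scaling (0.0632 and 0.125), which moved the median of all genes from -0.19 to -0.03. Clustering mattered too. The Hif1a call was lost at resolution 0.5 (edgeR adjusted p = 0.0875), with libraries clustered separately (0.0612) and with seeds 2 and 3 of the clustering (0.172 and 0.0752). The Vegfa call was lost with libraries clustered separately (edgeR adjusted p = 0.0594), with doublets kept (0.138) and with seed 3 (0.0827).

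The wider glycolysis list was counted against the same shares of all genes, 30.8% in dividing T-like and 21.7% in dividing NK-like cells. Of 19 tested genes, 8 were higher and 2 lower in dividing T-like cells, with Tpi1, triose phosphate isomerase, at 1.09 ± 0.06 and Gapdh at 0.76 ± 0.05 (edgeR adjusted p = 1.42e-10). In dividing NK-like cells 3 were higher and 1 lower, led by Tpi1 at 0.65 ± 0.07 (edgeR adjusted p = 4.05e-07), which is near the share of all genes. Of the 9 tested HIF regulators, 0 were called in dividing T-like cells and 1, Arnt, was lower in dividing NK-like cells at -0.58 ± 0.20 (edgeR adjusted p = 0.0381). Ldha and Pgk1 have processed pseudogene copies in the mouse genome, and how reads that match several places were counted is not given in the sources used here.

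Ages were compared within a class as the ratio of CPM to the 4-month library, with a change counted past 1.5-fold where a gene reached 10 CPM. Egln3 could not be compared in any of the 7 classes, nor Vegfa in dendritic cell-like, T-like and dividing T-like cells. This left 8 or 9 of the 10 genes per class, and the shares of all genes likewise cover only genes that could be compared. At 12 months none of these 8 or 9 genes passed 1.5-fold in any of the 7 classes. The share of all genes past it at 12 months was 3.81% in macrophage-like, 5.30% in monocyte-like, 5.91% in dendritic cell-like, 3.88% in T-like, 3.75% in NK-like, 6.08% in dividing T-like and 15.8% in dividing NK-like cells. At 20 months, 1 of the 10 genes passed it in each of macrophage-like (3.42% of all genes), monocyte-like (4.34%), dividing T-like (7.61%) and dividing NK-like cells (17.9%). At that age 0 passed it in dendritic cell-like (7.23% of all genes), T-like (6.16%) and NK-like cells (3.57%).

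Vegfa in macrophage-like cells was at 8.75, 11.3 and 14.8 CPM. The log2 ratio to 4 months came to 0.37 (0.12 to 0.62) for the 12-month library and 0.75 (0.52 to 0.99) for the 20-month library. The size, and at 12 months the sign, depended on which cells were called macrophage-like. With each library clustered separately the ratios were -0.51 and 0.36, and with stricter naming of clusters they were -0.44 and 0.22. Stricter naming left the Il1b, Cxcl11 and Mmp12 clusters of macrophage-like cells unnamed, and also the Dapl1 cluster of T-like cells. With another random start of the clustering the ratios were 0.17 to 0.47 and 0.58 to 0.84. The 20-month level was above the 4-month level in each of these. Its ratio was past 1.5-fold in 14 of the 17 settings run. It fell inside 1.5-fold with libraries clustered separately, under stricter naming and with seed 3 of the clustering (0.579). The 17 settings include the main one and changes of the fold or CPM threshold, which could not alter the ratio.

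Vegfa in monocyte-like cells was at 21.3, 24.0 and 34.9 CPM. The log2 ratio came to 0.17 (-0.08 to 0.42) for the 12-month library and 0.71 (0.49 to 0.92) for the 20-month library. The latter lay between 0.65 and 0.92 over the 16 settings run. These include the main setting, changes of the fold or CPM threshold and stricter naming, none of which altered the cells or counts behind this ratio. The summed level of 8 neutrophil marker genes in monocyte-like cells also moved, at 92.3, 1218 and 1469 CPM. Without the 11, 23 and 29 monocyte-like cells that held 5 or more counts of these genes, their sum was 88.2, 117.9 and 107.6 CPM and the 20-month ratio of Vegfa was 0.67. Thinned to 3000 counts, 2.36%, 3.12% and 4.14% of macrophage-like cells and 4.47%, 5.42% and 7.52% of monocyte-like cells had a Vegfa count. Without thinning the shares were 5.79%, 7.51% and 9.11% and 9.51%, 10.1% and 14.7%. T-like cells, at 0.731% to 0.828% after thinning, showed no such order.

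**Figure D3:**
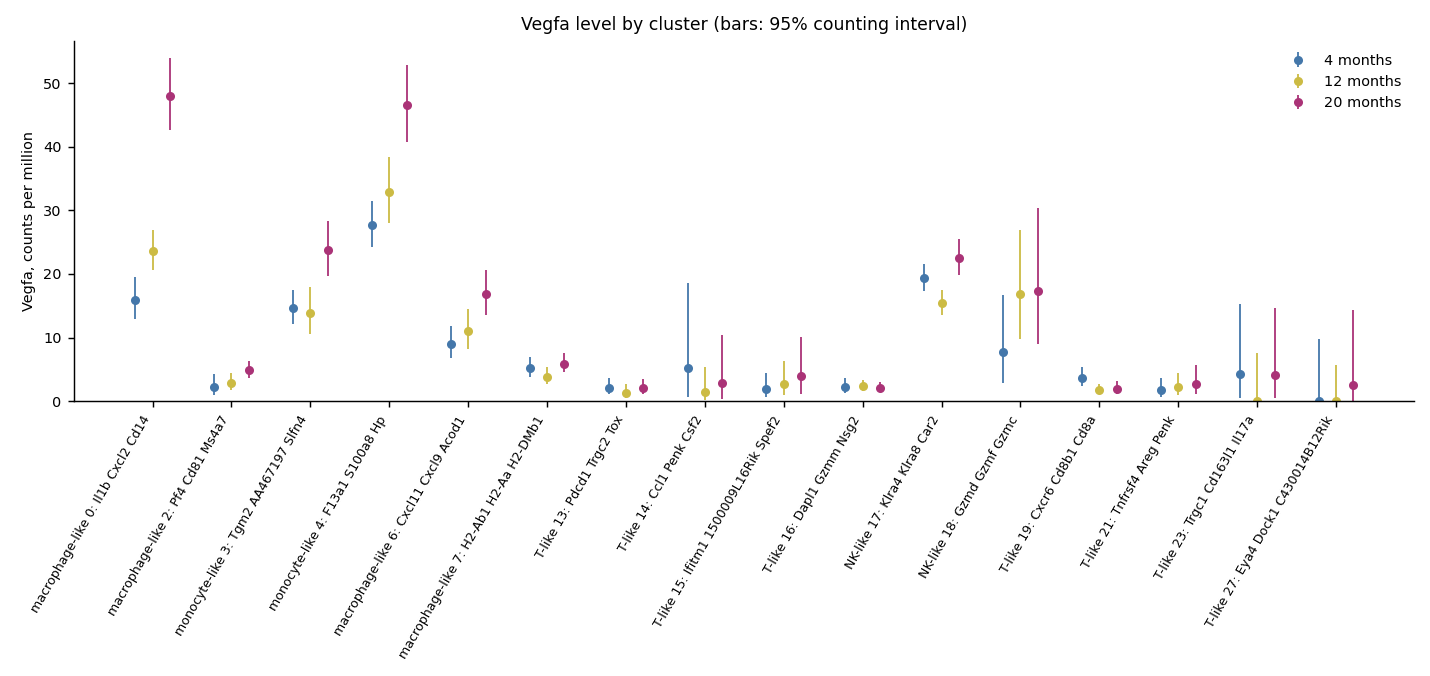
Vegfa level (vertical axis, CPM, starting at 0) in each cluster of macrophage-like, monocyte-like, T-like and NK-like cells with at least 50 cells in every library, at 4, 12 and 20 months, with bars for the 95% counting interval. The Il1b cluster of macrophage-like cells and the F13a1 cluster of monocyte-like cells are the highest at 20 months, at 48.1 and 46.6 CPM.

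The 20-month ratio of Vegfa differed in size from cluster to cluster, and the difference was not tested. In the Il1b cluster Vegfa was at 15.9, 23.6 and 48.1 CPM, a log2 ratio of 1.59 (1.248 to 1.95) at 20 months. In the cluster led by Cxcl11, Cxcl9 and Acod1 it was at 9.01, 11.02 and 16.9 CPM, a ratio of 0.91 (0.41 to 1.42). In the cluster led by H2-Ab1, H2-Aa and H2-DMb1, the one with the most cells, it was at 5.201, 3.81 and 5.87 CPM, under the 10 CPM minimum, and its ratio was 0.18 (-0.39 to 0.75). Both monocyte-like clusters were above their 4-month level, with ratios of 0.75 (0.48 to 1.02) in the F13a1 cluster and 0.70 (0.32 to 1.07) in the Tgm2 cluster.

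Other measures moved between the same libraries. The summed level of 12 immediate-early genes in macrophage-like cells was 3902, 4606 and 2779 CPM, so it was lowest where Vegfa was highest. The summed level of 12 macrophage marker genes in macrophage-like cells was 9247, 9359 and 11705 CPM, and the Il1b cluster held 652, 912 and 652 cells and the Pf4 cluster 409, 576 and 1092 cells. The summed level of 8 melanoma marker genes in macrophage-like cells was 30.8, 33.8 and 34.8 CPM, with none of the 8 at 0. The part of these in the Vegfa values was not tested. In sums over a class, more cells with Vegfa and more Vegfa per cell cannot be told apart.

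**Figure D4:**
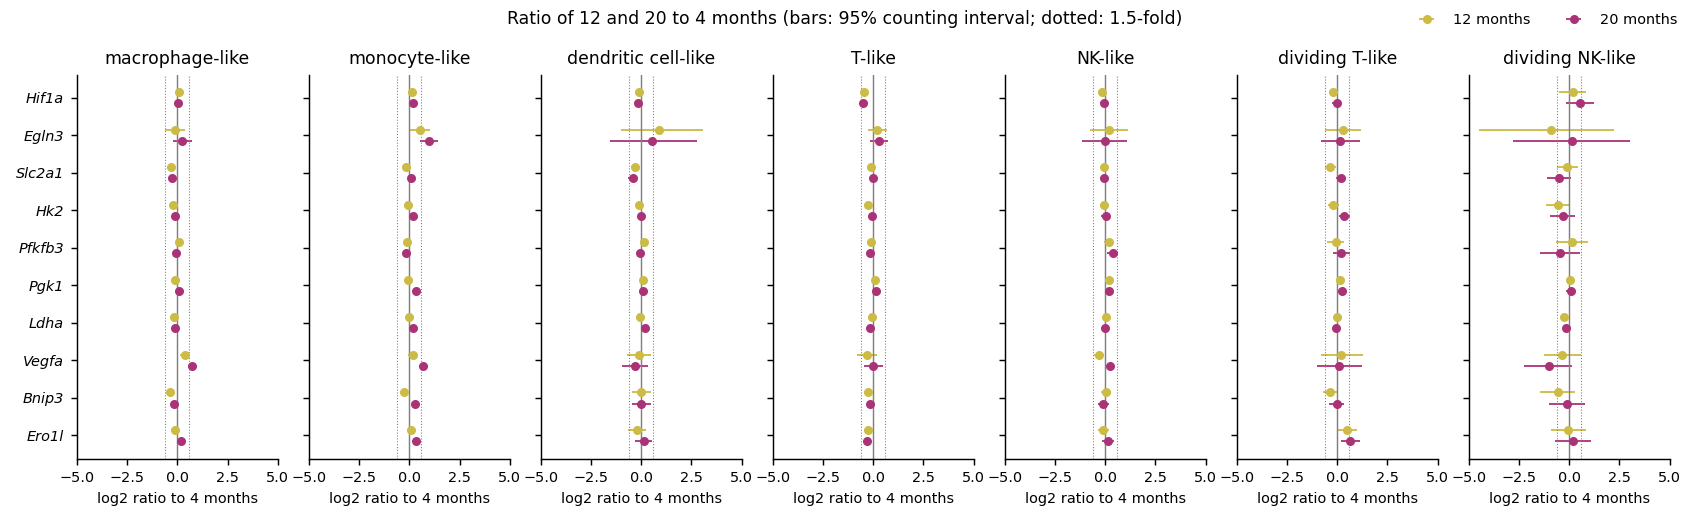
Log2 ratio of each gene to the 4-month library (horizontal axis) at 12 and 20 months in 7 cell classes, with bars for the 95% counting interval and dotted lines at 1.5-fold. Vegfa at 20 months lies past the dotted line in macrophage-like and monocyte-like cells, and Hif1a in T-like cells lies just inside it.

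In macrophage-like cells 9 of the 10 genes could be compared, with a median log2 ratio of -0.10 at 12 months and -0.06 at 20 months. In monocyte-like cells at 20 months 8 of 9 compared genes were above 0, with a median of 0.21 against 0.04 over all genes. Egln3 in monocyte-like cells did not reach the 10 CPM minimum, at 4.48, 6.51 and 8.91 CPM on 75, 60 and 91 counts. Its log2 ratios were 0.54 (0.02 to 1.05) and 0.99 (0.53 to 1.45), and the latter was larger than that of Vegfa in the same class. In nonclassical monocyte-like cells, which are outside the counts above, Hk2 at 20 months had a log2 ratio of -0.72 (-1.13 to -0.32) on 70 counts against 211. The highest cell at 4 months held 56 of those 211 counts, which the counting interval does not take into account.

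Hif1a in T-like cells came close to 1.5-fold, at 72.8, 52.6 and 51.6 CPM, with log2 ratios of -0.47 (-0.56 to -0.38) and -0.50 (-0.59 to -0.40). In the Foxp3-carrying cluster the ratios were -0.41 and -0.46, and in the cluster led by Cxcr6, Cd8b1 and Cd8a they were -0.32 and -0.29. In the cluster led by Pdcd1, Trgc2 and Tox they were -0.24 and 0.15. Over the 16 settings run the T-like ratio at 20 months lay between -0.71 and -0.35. These include the main setting and changes of the fold or CPM threshold, which could not alter the ratio. The makeup of the class moved too, with 675, 532 and 408 cells in the Foxp3-carrying cluster, where Hif1a was high, and 1009, 1790 and 2127 cells in the Dapl1 cluster, where it was low. A small T-like cluster led by Dpf3, Sim1 and Sema5a grew as well, at 3, 21 and 62 cells. Its median was 16865 counts per cell, and none of its leading genes was a T cell marker. The part of these shifts in the ratio was not tested.

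In dividing T-like cells Ero1l was at 10.2, 14.4 and 16.2 CPM, with ratios of 0.50 (0.05 to 0.96) and 0.66 (0.21 to 1.13). It rested on 56 counts at 4 months, and the 20-month ratio fell inside 1.5-fold at resolution 0.5 (0.42) and 2.0 (0.57), with libraries clustered separately (0.58) and with doublets kept (0.56). Vegfa in dividing NK-like cells had a ratio of -1.01 (-2.25 to 0.13) at 20 months, an interval that includes 0.

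Patterns over the 24 class and library sums are given as descriptions, since sums of 1 library or 1 class are not independent. Slc2a1 and Hk2 were the most alike of the 10 genes, with a Pearson correlation of 0.90 in log2(CPM + 10), and Ldha and Pfkfb3 were the most opposed at -0.63. The genes most alike were sought among the 8914 with a mean of at least 10 CPM, leaving out any of the 10 genes themselves. Hif1a was most like Vps54 (0.95), Hk2 most like Ltbr (0.99), Pfkfb3 most like Reep3 (0.98) and Vegfa most like Gas7 (0.95). Bnip3 was most like Svbp (0.94), Slc2a1 like Mpp1 (0.97) and Ero1l like F10 (0.96). Ldha was most like Tubb4b (0.96), Egln3 like Ikbke (0.79) and Pgk1 like Rtn3 (0.84).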

How the data were processed

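Values were raw counts per gene and cell, deposited by the authors as 1 matrix per age; these counts are whole numbers, and library totals differ. STAR 2.7.10a and GRCm38 are named in the submitters' processing notes. The annotation, the cell calling, the use of strand and the handling of reads that match several places are not given in the sources used here. Of the listed identifiers, 98.1% occur in GENCODE M21, used for positions; Vegfa was matched without its version number.

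Cells under 500 counts or over 15% mitochondrial counts were dropped, and the 6% of cells with the highest Scrublet score in each library were removed as doublets. Scanpy 1.11.5 clustered cells from 2000 variable genes, 30 components and 15 neighbours at resolution 1.0, without the 10 genes, the pathway lists and 10 library-specific genes. Clusters were named by marker scores, and the naming settings were adjusted several times after the clusters' leading genes had been seen. The borders between clusters were unstable. In 2 earlier runs, which differed in the computer's numerical routines, they fell elsewhere and gave other values, and those results had been seen. The run used here has fixed routines and was kept because it can be repeated. Seeds 1, 2 and 3 of the clustering, strict naming, a subtraction of the T-like level and leaving out monocyte-like cells with 5 or more neutrophil marker counts were added after the data had been seen. Counts were summed per class and library and tested with edgeR 4.0.16, checked on simulated data. DESeq2 1.42.0, other scalings, filters, resolutions and left-out libraries were tried as alternatives. Age ratios have exact intervals at 95%. Every cell had more than 3000 counts, so thinning left none out. No column of another sample was present. P-values measure the spread of class sums between these libraries that remains once the age term is removed, and not a spread between mice or repeat libraries.

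The 10 genes, the lists and the tests were chosen with earlier results of these data known. The text names all 10 genes, up to 3 list genes per direction with the largest change among those called, and the genes most alike by correlation. Clusters singled out within a class were chosen after their values were seen.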

Additional observations from a re-analysis of the deposited data

Results flagged for a closer look

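Hif1a moved in opposite directions with age in different cell classes, with both older libraries on the same side of the 4-month library. The log2 ratio of 20 to 4 months was 0.20 in monocyte-like cells and -0.50 in T-like cells. Ero1l did the same among T-like cells, with a ratio of 0.66 in dividing T-like cells and -0.29 in the other T-like cells. Each of these counting intervals excluded 0, but none was adjusted for a shift of all genes. The all-gene median at 20 months was 0.04 for the monocyte-like class, -0.11 for the T-like class and -0.02 for the dividing T-like class. At 12 months Hif1a stood at 0.15 (0.04 to 0.25) in the monocyte-like class, where that median was 0.05. In the T-like class Hif1a stood at -0.47 at 12 months, where the median was -0.05. The differences between the classes were not tested, since each age has 1 library.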

How the results depend on the processing

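No paired analysis was possible because each age has 1 library and ages share none, while the class contrasts hold the library as a term already, through age. The share of all genes called under each alternative is not given here, so the numbers below describe only how the calls depend on the processing. The number of the 10 genes called stayed within 1.5 times its value in class contrasts except in these settings. For dendritic cell-like against macrophage-like cells 9 became 5 at resolution 2.0, 4 with libraries clustered separately and 5 under strict naming, and for NK-like against macrophage-like cells 8 became 5 under strict naming. For NK-like against T-like cells 3 became 5 at resolution 0.5 and 5 under strict naming, and for dividing against other T-like cells 2 became 6 and 5 under the same settings. For dividing against other NK-like cells 4 became 2 with total counts only, without the 12-month library, at resolution 0.5, with libraries clustered separately and with clustering seed 3. Leaving out 1 library gave 8 genes for monocyte-like, 8 to 9 for dendritic cell-like, 5 to 6 for T-like and 7 to 8 for NK-like against macrophage-like cells, 3 for NK-like against T-like, 2 to 3 for dividing T-like and 2 to 4 for dividing NK-like cells.

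Gene and class pairs past the fold were 0 at 12 months and 4 at 20 months. They became 10 and 14 at a lower fold threshold and 3 and 8 after thinning, and the 20-month number became 1 at 2-fold. The share of all genes past the fold under these alternatives is not given here, so the numbers are not a result about the 10 genes. The 12-month number became 1 with TMM scaling, with no minimum CPM and with seeds 1 and 2, 2 without the 10 highest cells, at resolutions 0.5 and 2.0, with doublets kept and with seed 3, and 3 with libraries clustered separately. With the level of T-like cells subtracted, Vegfa in macrophage-like cells had log2 ratios of 0.57 and 0.97.

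Among the signs that reversed were the following. With libraries clustered separately Ldha in monocyte-like against macrophage-like cells gave 0.014. In dendritic cell-like against macrophage-like cells Vegfa gave 0.38 at resolution 2.0 and 0.48 under strict naming, which also gave Slc2a1 0.062. Ero1l in T-like against macrophage-like cells gave 0.10 at resolution 2.0 and 0.13 under strict naming. Vegfa in dividing NK-like cells at 20 months gave 0.40 after thinning. Vegfa in macrophage-like cells at 12 months gave -0.51 with libraries clustered separately and -0.44 under strict naming. Of 27 further gene and contrast pairs that were not called, 13 were called under at least 1 alternative, 1 of them, Egln3 in dividing T-like cells, with the opposite sign. Seeds, strict naming, the subtraction and leaving out cells with neutrophil markers were chosen after seeing the data, and the causes were not tested.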
